A study of Mus musculus with 5 samples.

Results

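The genes described here are the nuclear genes for the proteins of the mitochondrial ribosome, taken as every gene of the deposited table of coding genes whose symbol began with Mrpl or Mrps and a digit and whose counts summed to at least 10 over 5 libraries. They numbered 78 of 17228 genes, and all 78 passed the filter on low counts that left 12540 genes for testing. In the large subunit 30 proteins were classed as having a bacterial counterpart (bacterial-type) and 21 as found only in mitochondria (mitochondria-specific). The small subunit had 16 bacterial-type and 10 mitochondria-specific proteins. Mrps18a and Mrps18b were put in the mitochondria-specific classes although they are homologues of a bacterial protein. The remaining gene, Mrps36, carries the symbol but is now known to encode a component of the 2-oxoglutarate dehydrogenase complex.

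The mitochondrial ribosome is built from RNAs encoded in mitochondrial DNA and from proteins that are encoded in the nucleus, made in the cytosol and imported. It translates the few messenger RNAs of mitochondrial DNA, whose products are core subunits of the respiratory chain and of ATP synthase, and the heart depends on both for its supply of ATP. Its large subunit forms the peptide bonds and its small subunit reads the messenger RNA. Both subunits have kept proteins of bacterial descent and gained others.

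Poly-A selected RNA from whole hearts of mice at 6 months of age was sequenced in 3 db/db samples (females 1 and 2 and 1 male, genotype KsJ-Lepr db/Lepr db, diabetic) and 2 WT samples (1 female and 1 male, non-diabetic), all with the strain label C57BL. The db allele is a splicing mutation of the leptin receptor gene Lepr, and homozygous mice become obese and diabetic. KsJ is named in the db/db genotype alone, so the genotype and a difference in background cannot be told apart, and the growth protocol speaks of male mice whereas 3 samples are labelled female. Whether the samples are separate animals is not stated in the labels, and the p-values therefore reflect only how far these samples spread, which may be technical. In whole tissue, fewer cells of a type and less RNA per cell cannot be told apart.

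The libraries held 8356099 to 10381326 counts and detected 14685 to 15132 genes. Lepr had 3, 7 and 5 counts in the db/db samples, against 37 and 14 counts in the WT samples, and the Y-linked gene Ddx3y had 453 counts or more in the male samples, against at most 1 count in the female samples. All 10 markers of ventricular heart muscle cells were detected and summed to 98458 to 109334 CPM (counts scaled to the library total) in db/db samples, against 95911 and 95927 CPM in WT samples, and 6 fat cell markers to 1.71 to 5.30 CPM in db/db samples, against 0.337 and 1.21 CPM in WT samples. Of the 6 fat cell markers 0 passed the filter on low counts, so their sums rest on few counts.

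The 78 genes lay on 17 chromosomes, with 11 on chromosome 11 and 8 on chromosome 17. RefSeq promoter windows, which run from 250 bases before to 50 bases after a start given by RefSeq, were matched for 69 of them in GRCm38.p6. The windows were searched on both strands for letters of motifs bound by regulators of nuclear genes for mitochondrial proteins: GCGCANGC for NRF1, CCGGAAG for the ETS family that includes GABPA, AAGATGGCG for YY1 and TCAAGGTCA for the estrogen-related receptors (ERR). No match of 1 motif overlapped a match of another in these promoters. The windows shown, with the matches in capitals, are those of Mrpl14 and Mrps6, which had the smallest p-values for db/db against WT, Mrpl3, which had the lowest fold change, and Mrpl42, which had the highest level. The windows lie at chr17:45686099-45686398 (plus strand, Mrpl14), chr16:92058086-92058385 (plus strand, Mrps6), chr9:105053018-105053317 (plus strand, Mrpl3) and chr10:95501900-95502199 (minus strand, Mrpl42), and each is written 5′ to 3′ in the direction of its gene.
Mrpl14: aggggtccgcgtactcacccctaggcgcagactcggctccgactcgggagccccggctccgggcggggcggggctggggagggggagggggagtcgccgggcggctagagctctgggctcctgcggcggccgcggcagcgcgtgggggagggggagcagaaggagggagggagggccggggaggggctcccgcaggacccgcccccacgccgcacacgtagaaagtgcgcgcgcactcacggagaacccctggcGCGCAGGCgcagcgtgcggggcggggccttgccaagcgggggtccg
Mrps6: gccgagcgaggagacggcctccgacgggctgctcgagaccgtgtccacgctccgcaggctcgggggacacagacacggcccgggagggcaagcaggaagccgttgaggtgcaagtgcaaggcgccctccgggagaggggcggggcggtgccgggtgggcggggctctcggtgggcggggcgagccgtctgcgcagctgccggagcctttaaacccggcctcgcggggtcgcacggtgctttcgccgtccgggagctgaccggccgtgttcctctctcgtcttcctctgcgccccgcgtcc
Mrpl3: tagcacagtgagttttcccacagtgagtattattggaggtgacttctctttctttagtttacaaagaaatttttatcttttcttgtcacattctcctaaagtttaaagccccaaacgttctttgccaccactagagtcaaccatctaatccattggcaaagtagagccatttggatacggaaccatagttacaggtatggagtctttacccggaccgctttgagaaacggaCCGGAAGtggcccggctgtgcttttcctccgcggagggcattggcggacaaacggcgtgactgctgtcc
Mrpl42: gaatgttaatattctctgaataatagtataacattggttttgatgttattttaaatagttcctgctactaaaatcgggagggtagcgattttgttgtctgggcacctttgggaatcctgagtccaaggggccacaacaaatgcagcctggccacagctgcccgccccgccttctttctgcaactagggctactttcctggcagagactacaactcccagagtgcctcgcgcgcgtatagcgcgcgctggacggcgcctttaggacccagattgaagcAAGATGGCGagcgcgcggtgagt

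Mrpl14 held an NRF1 match, Mrpl3 an ETS match and Mrpl42 a YY1 match, and Mrps6 held none of the 4 motifs in this window. Of the 69 promoters, 21 (30.4%) held the NRF1 letters, against 10.1% of all 27025 promoters and 20.2% of the 10002 promoters of tested genes. The ETS letters were in 25 (36.2%), against 9.12% of all promoters and 18.0% of those of tested genes. The YY1 letters were in 8 (11.6%), against 1.49% of all promoters and 3.21% of those of tested genes. The ERR letters were in 0 of the 69, against 0.407% of all promoters and 0.27% of those of tested genes. None of the 4 motifs was held by 24 promoters (34.8%), against 81.2% of all promoters and 63.6% of those of tested genes. In the comparison of db/db with WT described below, the median log2 fold change was 0.27 for genes with NRF1 letters and 0.20 for those without, 0.23 and 0.20 for ETS, and 0.13 and 0.22 for YY1.

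Levels between genes were compared in FPKM, the authors' values scaled to transcript length and library size. The mean over the 5 samples ranged from 7.41 FPKM (Mrpl19) to 716.0 FPKM (Mrpl42) with a median of 70.8 FPKM, and 31 genes were over 100 FPKM and 7 under 20 FPKM. Mrpl42, a mitochondria-specific protein of the large subunit, had 731.9, 705.7 and 657.5 FPKM in the db/db samples, against 756.3 and 728.9 FPKM in the WT samples. It was the most abundant of the 78 in each of the 5 samples, although in the db/db male its level was close to that of Mrps21, a bacterial-type protein of the small subunit, at 656.5 FPKM. Mrps21 had 585.9 and 468.8 FPKM in the db/db females, against 396.4 FPKM in the WT female and 524.7 FPKM in the WT male.

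The next in order were Mrpl30 with a mean of 350.2 ± 44.0 FPKM (SD over 5 samples), Mrpl12 with 303.0 ± 29.2 FPKM and Mrpl23 with 280.0 ± 25.2 FPKM. Mrpl12 is the counterpart of the bacterial stalk protein L7/L12, which recruits translation factors, and Mrpl23 lies at the rim of the tunnel through which the new protein leaves. Mrpl30 was above the other two in each of the 5 samples, whereas Mrpl12 was above Mrpl23 in 4 of 5, so the order of these last is not resolved. The lowest were Mrpl35 with 13.7 ± 0.494 FPKM, Mrpl17 with 13.3 ± 2.09 FPKM, Mrps22 with 12.9 ± 2.48 FPKM, Mrps25 with 11.6 ± 0.547 FPKM and Mrpl19 with 7.41 ± 0.301 FPKM. Of these 5 only Mrpl19, at 6.95 to 7.75 FPKM, had a range that did not overlap that of its neighbour in the order. Mrps25 shares 69.8% of its annotated exon bases with Nr2c2 on the opposite strand and Mrpl19 36% with Gcfc2. How the counting treated strand is not given in the sources at hand. Here and below, annotated exon bases are those of all annotated transcripts of a gene together.

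**Figure D1:**
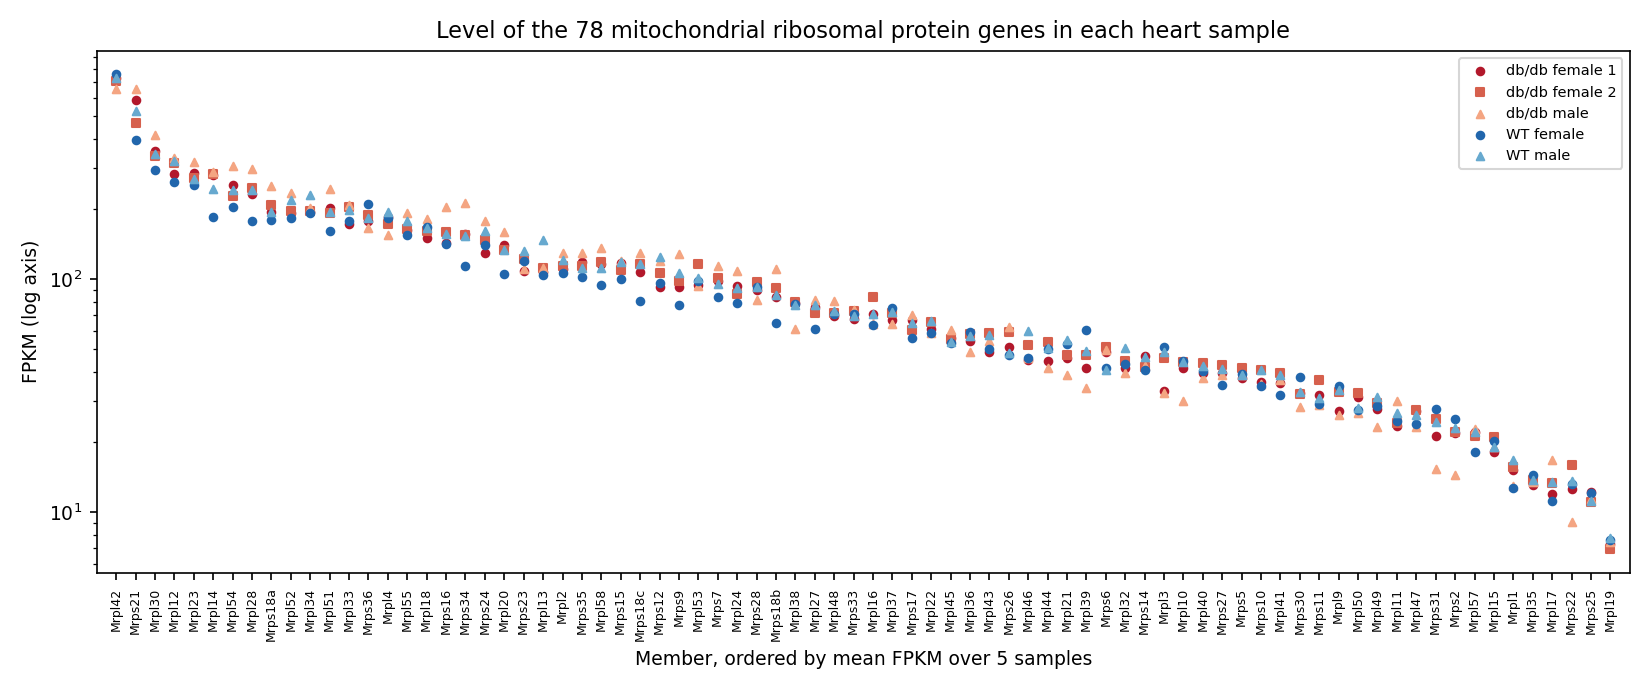
FPKM of each of the 78 genes (log axis), ordered along the horizontal axis by the mean over the 5 samples, with 1 point per sample (db/db red, WT blue). Mrpl42 is at the top with a mean of 716.0 FPKM and Mrpl19 at the bottom with 7.41 FPKM, and the spread within most genes is small beside the differences between genes.

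The lengths that counts and FPKM imply were checked gene by gene. The median implied length was 948 bases for the 78 genes (324 to 6636 bases), against 2769 bases for all genes tested, and 72 of the 78 were below that median. Their median GC content was 49.8%, against 50.0% for all genes tested. Implied lengths were a median of 0.850 times the longest annotated length and differed by a median of 1.01 times between samples, but 5 genes (Mrps17, Mrps14, Mrpl1, Mrps9 and Mrps18b) differed by over 1.1 times, so their FPKM and counts do not give the same ratio between samples. Mrpl41 had an implied length of 2339 bases, 3.01 times its annotated length of 776 bases. In the other direction, 11 genes had implied lengths of only 0.186 times (Mrps16) to 0.453 times (Mrps30) the longest annotated length.

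Together the 78 genes took 0.691%, 0.716% and 0.747% of all counts in the db/db samples, against 0.661% in the WT female and 0.724% in the WT male, so the groups overlapped. The question of the study's design was how the diabetic heart differs from the non-diabetic one. No mitoribosomal protein gene passed the test for db/db against WT (edgeR quasi-likelihood test, Benjamini-Hochberg adjusted p under 0.05 over all genes tested), while 129 of 12540 genes did, which is 1.03%. DESeq2 and limma-voom also called 0 of the 78, and the authors' deposited table gave no gene of the 78 a q-value under 0.05 (smallest 0.0877). At an unadjusted p under 0.05, 15 of the 78 were higher in db/db and 0 lower, against 6.87% of all genes tested that were higher.

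The log2 fold changes of db/db over WT were mostly above 0, in 70 of the 78 genes against 49.0% of all genes, with a median of 0.20 against -0.01 for all genes and a range from -0.25 to 0.59. With scaling to library totals, which moved the median of all genes to -0.19, 43 of 78 were above 0 and their median was 0.02. Relative to all genes the median was 0.21 in both scalings. In CPM scaled by TMM factors, the CPM used from here on, all 3 db/db samples were above both WT samples for 28 genes (35.9%), against 15.1% of all genes, and below both for 0, against 16.5% of all genes. The WT female was the lowest sample for 67 of the 78 genes, against 25.5% of all genes, and the db/db male the highest for 46, against 27.8% of all genes.

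The size of this shift depended on single libraries. Without the WT female the median was 0.09, without the WT male it was 0.35, and without the db/db male it was 0.14. With WT female and db/db male both left out it was 0.04. Per sample, the median over the 78 genes of log2 CPM minus the WT mean was 0.09, 0.18 and 0.29 in db/db female 1, db/db female 2 and the db/db male, against -0.12 in the WT female and 0.12 in the WT male. The db/db female 1 therefore lay below the WT male. Sums of other marker lists differed between the libraries too. The 4 red blood cell markers summed to 5030, 6305 and 6118 CPM in the db/db samples, against 2538 CPM in the WT female and 7217 CPM in the WT male, so the WT female was lowest there as well. The 6 skeletal muscle markers, with Acta1 and Ckm among them, summed to 5024 to 7038 CPM in the db/db samples. In the WT female and the WT male they summed to 3773 and 5651 CPM. Only 4 of the 6 passed the filter on low counts. The median of log2 CPM minus the gene's mean was -0.17 in db/db female 1 and -1.32 in db/db female 2. Their sums were nearly equal, at 5038 and 5024 CPM. Whether the sum measures skeletal muscle was not tested. The db/db samples were below both WT samples in the sums of 4 atrial markers (246.0 to 363.8 CPM against 404.9 and 503.1 CPM) and 5 lymphocyte markers (1.47 to 5.27 CPM against 5.84 and 7.09 CPM), also when scaled to library totals. Only 2 markers of each of these lists passed the filter on low counts. The 2 atrial markers went opposite ways, with log2 fold changes of -0.58 and 0.21, and the 2 lymphocyte markers had -1.31 and -1.14. The groups overlapped for 6 fibroblast markers in both scalings. They also overlapped for 5 endothelial markers (785.0 to 957.8 CPM in db/db against 882.2 and 1104 CPM in WT) and 6 macrophage markers (152.0 to 158.9 CPM in db/db against 138.6 and 158.6 CPM in WT), whereas with library totals the db/db samples were below both WT samples in these 2 lists. No marker of these lists was at 0 in all samples, and their part in the shift was not tested.

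Mrpl14, a bacterial-type protein of the large subunit that binds the assembly factor Malsu1 in humans, had the smallest p and the highest fold change. It had 144.0, 146.4 and 168.2 CPM in the db/db samples, against 83.9 CPM in the WT female and 119.4 CPM in the WT male. Every db/db sample was above both WT samples, with means of 152.9 ± 13.4 CPM in db/db and 101.6 ± 25.1 CPM in WT (SD, n = 3 and 2). The log2 fold change was 0.59 (SE 0.17, edgeR adjusted p = 0.167). The gene lies at chr17:45685724-45698495 (GRCm38.p6, plus strand). The RefSeq start behind the window printed above lies 625 bases downstream of this first base, so that window is inside the gene as the table bounds it.

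Mrps6, a bacterial-type protein of the small subunit, had 34.2, 36.2 and 39.0 CPM in the db/db samples, against 25.8 and 27.3 CPM in the WT samples. Its WT samples lay close together, so the groups were apart by more than their spread, at 36.5 ± 2.44 CPM in db/db and 26.5 ± 1.03 CPM in WT (SD, n = 3 and 2). The log2 fold change was 0.46 (SE 0.15, edgeR adjusted p = 0.232). Mrps6 (chr16:92058322-92112227) shares 19.9% of its annotated exon bases with the predicted gene Gm49711 and 10.4% with the inositol transporter gene Slc5a3. Both lie on the same strand, so reads there can be split between them. The shares are of 1533 bases over all its annotated transcripts, against an implied length of 693 bases.

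Mrps34, a mitochondria-specific protein of the small subunit, had 129.2, 127.4 and 195.2 CPM in the db/db samples, against 82.1 CPM in the WT female and 119.9 CPM in the WT male. The db/db male was well above the other samples. Its log2 fold change was 0.58 (SE 0.22, edgeR adjusted p = 0.313), and its value is uncertain. Of its annotated exon bases 63.4% overlap Mapk8ip3 on the opposite strand and 37% Nme3 on the same strand. These shares are of 2064 bases over all its annotated transcripts, against an implied length of 812 bases. How far the overlaps reach the counted transcript is not known.

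Mrpl58 encodes a peptidyl-tRNA hydrolase that sits in the large subunit and frees stalled ribosomes. It had 89.1, 90.7 and 111.8 CPM in the db/db samples, against 63.8 CPM in the WT female and 80.9 CPM in the WT male. The groups did not overlap, and the log2 fold change was 0.42 (SE 0.16, edgeR adjusted p = 0.311). The other 6 of the 10 genes with the smallest p were the small-subunit proteins Mrps7, Mrps18b and Mrps26 and the large-subunit proteins Mrpl20, Mrpl28 and Mrpl51. Their log2 fold changes ran from 0.41 (Mrps7) to 0.49 (Mrpl28), with edgeR adjusted p from 0.277 to 0.356. In each of these 6 all db/db samples were above both WT samples, but in 2 of them barely. For Mrps18b db/db female 1 lay at 72.5 CPM and the WT male at 72.49 CPM. For Mrpl28 the same samples lay at 230.9 and 227.9 CPM.

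Fold changes were below 0 in 8 genes, and in each of these the groups overlapped. The lowest was Mrpl3, a bacterial-type protein of the large subunit whose human counterpart is mutated in a cardiomyopathy. Mrpl3 had 48.5, 67.4 and 53.1 CPM in the db/db samples, against 65.7 and 68.5 CPM in the WT samples. The db/db female 2 lay between the WT samples, and the log2 fold change was -0.25 (SE 0.16, edgeR adjusted p = 0.527). Mrpl39 followed at -0.23 and the other 6 lay between -0.15 and -0.01.

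The other genes whose human counterparts are mutated in cardiomyopathy, Mrpl44, Mrps14 and Mrps22, had log2 fold changes of 0.07, 0.13 and 0.08, and the median of the 4 was 0.08. Mrps22, a mitochondria-specific protein of the small subunit, had 14.4, 18.3 and 11.6 CPM in the db/db samples, against 13.3 and 14.8 CPM in the WT samples, and its groups overlapped. Mrps14 had 49.6, 49.6 and 49.7 CPM in the db/db samples, against 42.7 and 48.1 CPM in the WT samples. The values of Mrpl44 and Mrps22 were below 0 with library totals and with an offset for gene length, and that of Mrps14 with library totals.

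**Figure D2:**
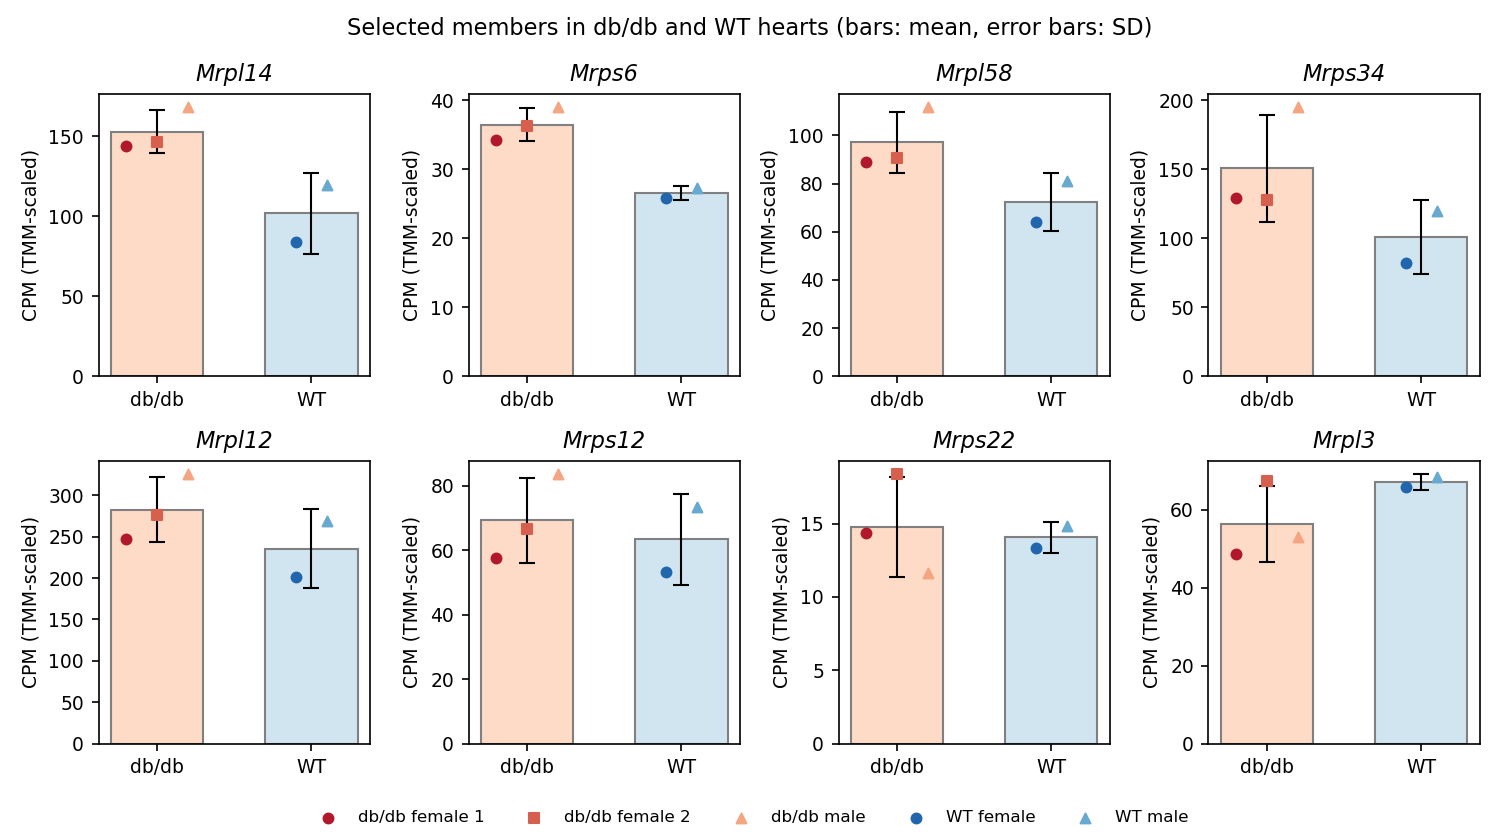
TMM-scaled CPM of 8 genes in db/db (left bars, n = 3) and WT (right bars, n = 2) hearts; bars are means, error bars SD, and points single samples (circles db/db female 1 and the WT female, squares db/db female 2, triangles males). Mrpl14 and Mrps6 have every db/db sample above both WT samples, whereas the groups overlap for Mrpl12, Mrps12, Mrps22 and Mrpl3.

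By subunit and class, 0 genes of each class passed the test in edgeR, DESeq2 or limma-voom, and the medians were close to each other. The 30 bacterial-type proteins of the large subunit had a median log2 fold change of 0.18 with 25 above 0, and its 21 mitochondria-specific proteins 0.21 with 20 above 0. The 16 bacterial-type proteins of the small subunit had a median of 0.25 with 15 above 0, and its 10 mitochondria-specific proteins 0.22 with 9 above 0. With library totals these medians were 0.00, 0.03, 0.07 and 0.04. Mrps36, the member by symbol, had a log2 fold change of 0.04, below 0 with library totals, at 117.6 ± 4.46 CPM in db/db and 114.5 ± 4.94 CPM in WT (SD, n = 3 and 2).

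Within the large subunit, the 5 proteins of the stalk region had a median of 0.21, the 7 of the central protuberance, the crown of the subunit that faces the small subunit, 0.17, and the 6 at the rim of the exit tunnel 0.31. Mrpl12, the stalk protein that also binds the mitochondrial RNA polymerase in humans, had 247.6, 275.7 and 325.2 CPM in the db/db samples, against 201.6 CPM in the WT female and 269.1 CPM in the WT male, and a log2 fold change of 0.27 (SE 0.17, edgeR adjusted p = 0.536). The groups overlapped and each sex was higher in db/db than in WT.

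The 3 homologues of bacterial protein S18 sit at different places, Mrps18a in the large subunit and Mrps18b and Mrps18c in the small. Their log2 fold changes were 0.41, 0.46 and 0.45 with edgeR adjusted p of 0.362, 0.332 and 0.383. Mrps12, which lies at the decoding site, had 57.6, 66.7 and 83.6 CPM in the db/db samples, against 53.4 CPM in the WT female and 73.4 CPM in the WT male, with a log2 fold change of 0.13, which was below 0 under the offset for length and GC and under library totals. Its start lies 172 bases from that of Sars2, the mitochondrial seryl-tRNA synthetase gene, which runs the other way and had a log2 fold change of 0.37 (SE 0.19, edgeR adjusted p = 0.438). In all, at least 19 of the 78 genes had such a divergent protein-coding neighbour within 1000 bases. At least 10% of the annotated exon bases were shared with another protein-coding gene in 12.

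**Figure D3:**
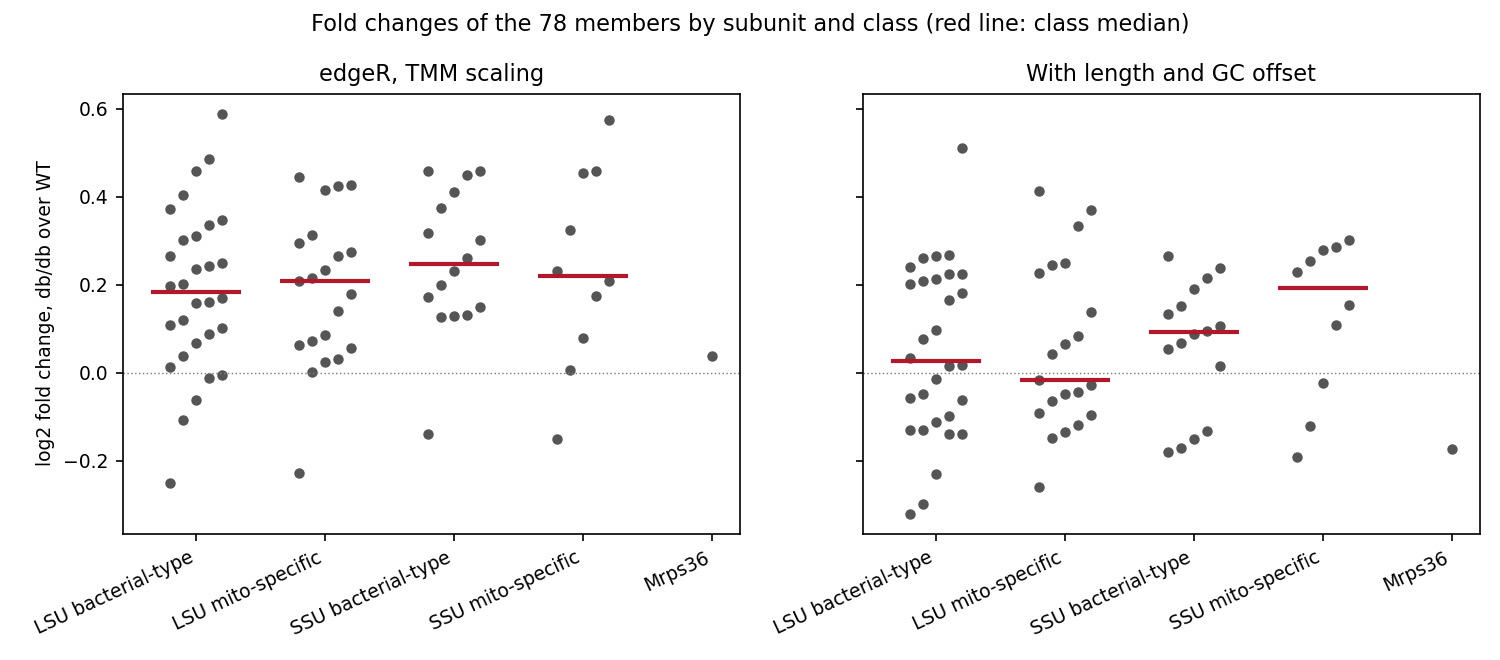
Log2 fold changes of db/db over WT for each of the 78 genes by subunit and class (LSU, large subunit; SSU, small subunit), on the left with TMM scaling and on the right with an offset for gene length and GC content; red lines are class medians. The class medians of 0.18 to 0.25 on the left become -0.02 to 0.19 on the right.

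The level of short transcripts differed between libraries, and most mitoribosomal transcripts are short. Among all genes with a mean log2 CPM over 2, the shortest of 10 bins by implied length (121 to 1075 bases, 1050 genes) had a median log2 fold change of 0.24 and the longest bin -0.13. The shortest bin held 47 of the 78 genes, and their median was 0.24, the same as that of all genes in the bin. In that bin the median deviation from a gene's mean over the samples was 0.01, 0.00 and 0.28 in db/db female 1, db/db female 2 and the db/db male, against -0.28 in the WT female and -0.02 in the WT male. The 78 genes deviated by -0.01, 0.06 and 0.18 in the db/db samples, against -0.27 in the WT female and 0.00 in the WT male. In the next bin, with 14 of the 78 genes, the median was 0.08 for these and 0.12 for all.

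Among the 78, the 26 shortest had a median log2 fold change of 0.28, the 26 in the middle 0.21 and the 26 longest 0.11. Over the 78 genes, which share libraries and are not independent replicates, log2 length and log2 fold change had a Pearson r of -0.28 and a Spearman rho of -0.33. By annotated length the shortest and the longest differed less, by 0.06 in place of 0.16. With an offset that removes, library by library, the trend with length and GC content, the median of the 78 was 0.07, 46 were above 0 and 0 passed the test, with 4 higher and 1 lower at an unadjusted p under 0.05. Mrpl14 had 0.27 and Mrps6 0.22 under this offset. Among the 78 the relation with length was reversed under it, with a Pearson r of 0.35 and a Spearman rho of 0.26. The shortest, middle and longest 26 genes had offset medians of 0.04, 0.05 and 0.16. In the samples WT female and db/db male, a deviation with length and a difference with genotype cannot be told apart.

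**Figure D4:**
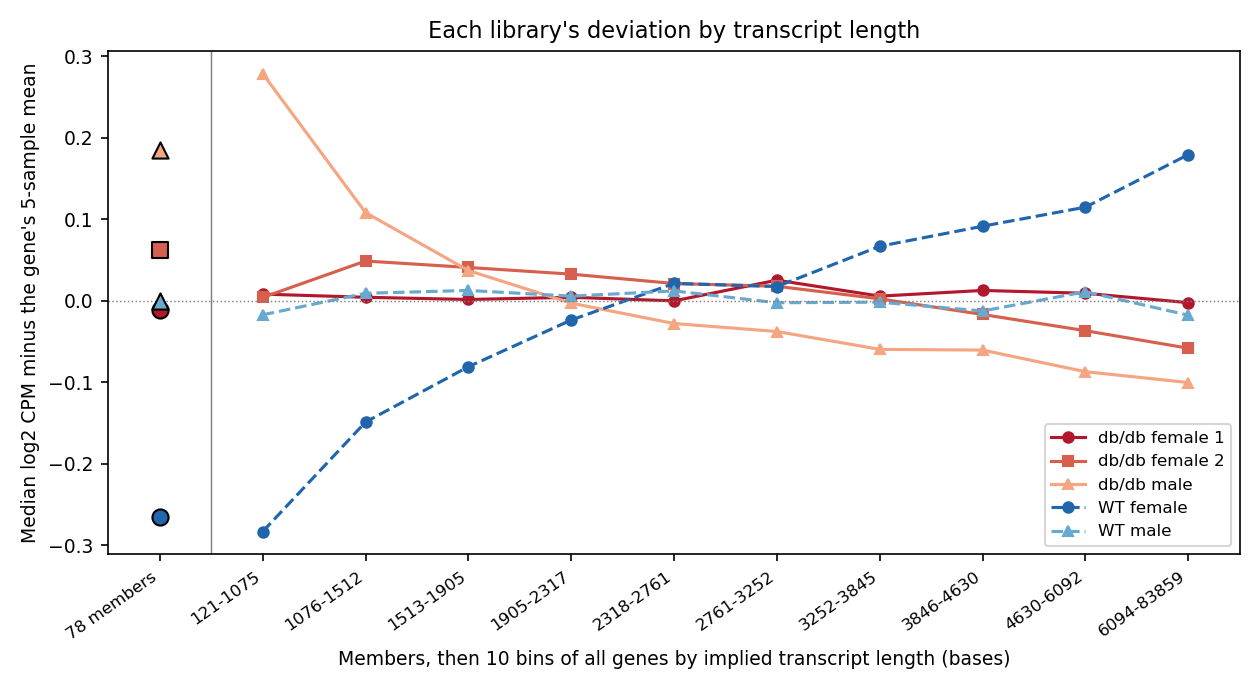
Median log2 CPM of each library minus the gene's mean over the 5 samples, for the 78 genes (left) and for all genes with a mean log2 CPM over 2 in 10 bins of implied length in bases. In the shortest bin the db/db male lies at 0.28 and the WT female at -0.28, and the 78 genes lie at 0.18 and -0.27 in the same libraries.

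The count of genes called depended on how sex entered. With sex as a covariate, 16 of the 78 genes passed the edgeR test, all higher in db/db, which is 20.5% against 4.62% of all genes called higher. In the same fit 37 of 83 cytosolic ribosomal protein genes and 47 of 84 nuclear-encoded respiratory chain and ATP synthase genes, which are shorter still, were called higher. The 16 mitoribosomal genes called were Mrpl14, Mrpl17, Mrpl20, Mrpl23, Mrpl28, Mrpl30, Mrpl51, Mrpl54, Mrpl58, Mrps7, Mrps18a, Mrps18b, Mrps18c, Mrps21, Mrps26 and Mrps34. Of these 16, 15 were shorter than the median tested gene, as were 72 of all 78. The smallest adjusted p were 0.00335 for Mrps34 (log2 fold change 0.67), 0.0050 for Mrpl14 (0.66) and 0.00621 for Mrpl28 (0.58). In females alone, with 2 db/db samples and 1 WT sample, 12 were called higher (15.4%), against 5% of all genes. These calls rest on the WT female, the library that was lowest for most of the 78 genes.

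With sex and the offset for length and GC together, 2 of the 78 were called higher (2.56%), against 2.19% of all genes, a share near the background. These were Mrpl17 and Mrpl51. Mrpl17 had the longest implied length of the 78, 6636 bases. With sex in the model its log2 fold change was 0.44 without the offset and 0.61 with it, against 0.51 and 0.47 for Mrpl51. Mrpl17 had 80.9, 90.4 and 125.0 CPM in the db/db samples, against 66.1 CPM in the WT female and 86.3 CPM in the WT male, so the groups overlapped. Mrpl51 had 292.0, 279.5 and 393.4 CPM in the db/db samples, against 204.9 CPM in the WT female and 267.6 CPM in the WT male. Both were chosen for description here by this call.

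**Figure D5:**
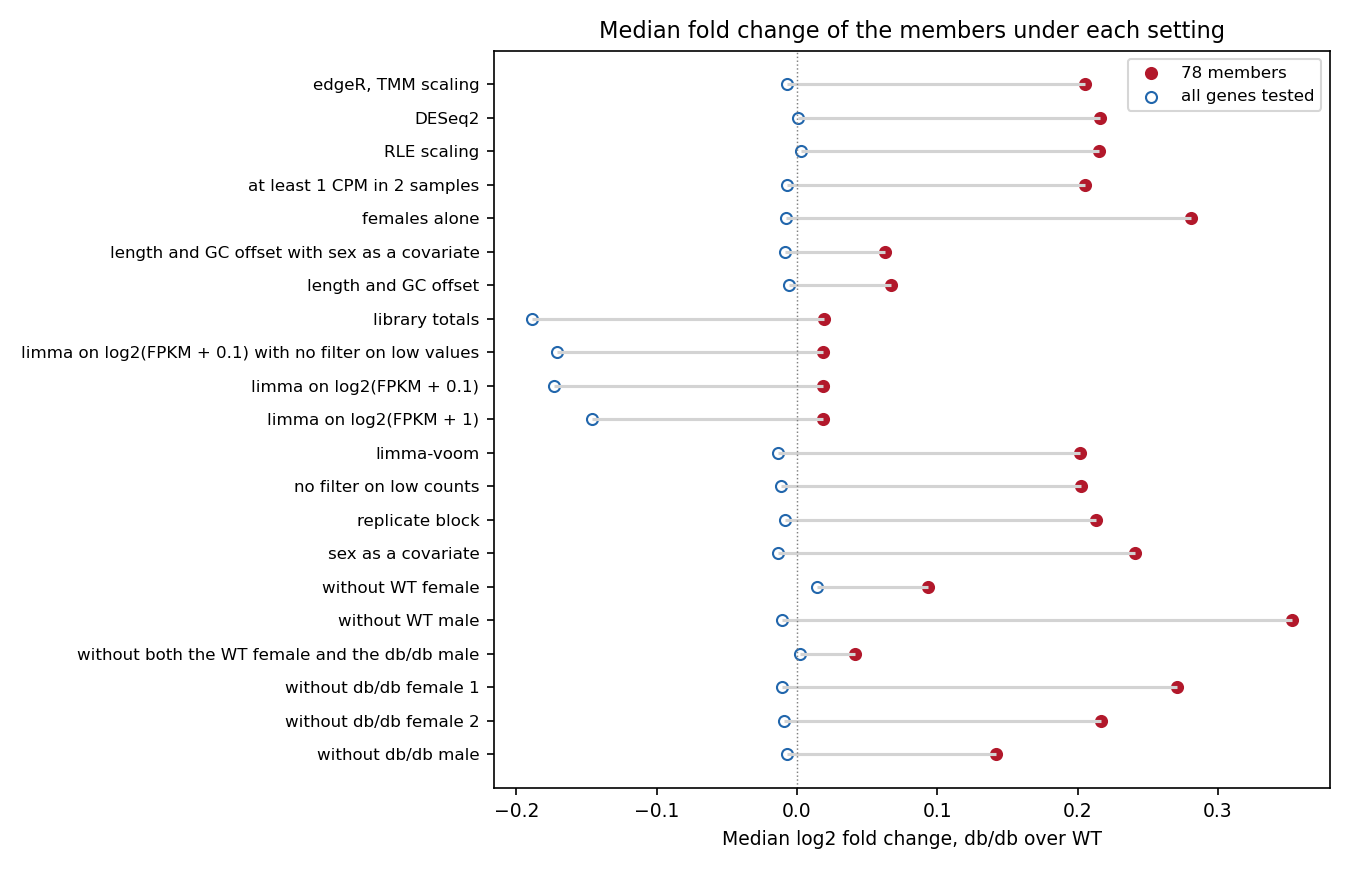
Median log2 fold change of db/db over WT for the 78 genes (filled) and all genes tested (open) under each setting. The members' median is 0.20 with TMM scaling, 0.07 with the length and GC offset, 0.02 with library totals where all genes lie at -0.19, and between 0.09 and 0.35 when 1 library is left out.

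The proteins that work with the mitochondrial ribosome were described from lists chosen with earlier results of these data known, and 0 genes of each list passed the edgeR, DESeq2 or limma-voom test. The 5 mitoribosomal proteins with symbols of another kind, Dap3, Ptcd3, Chchd1, Aurkaip1 and Gadd45gip1, had a median log2 fold change of 0.33 with 4 of 5 above 0. In edgeR 3 of them were higher in db/db at an unadjusted p under 0.05, against 6.87% of all genes tested. A list of 5 genes is too small for a share to be read as a result. Aurkaip1 had 151.8, 147.5 and 174.3 CPM in the db/db samples, against 106.1 and 128.6 CPM in the WT samples, with a log2 fold change of 0.43 (SE 0.15, edgeR adjusted p = 0.27). Gadd45gip1 had a log2 fold change of 0.51 (SE 0.21, edgeR adjusted p = 0.339).

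The lists of factors that act on the ribosome had medians near that of all genes. The 12 translation factors found in the table had a median log2 fold change of 0.03 with 7 above 0, and the 25 assembly and rRNA modification factors -0.03 with 12 above 0. The 17 mitochondrial aminoacyl-tRNA synthetases had a median of 0.01 with 9 above 0. With library totals these medians were -0.15, -0.21 and -0.17, against -0.19 for all genes. At an unadjusted p under 0.05 edgeR had 0, 2 and 1 genes of these lists, shares below the 12.9% of all genes tested that reached it in either direction. Gfm1, the elongation factor that moves the ribosome along the messenger RNA, had 93.1, 114.6 and 85.6 CPM in the db/db samples, against 115.9 and 125.8 CPM in the WT samples, all 3 below both WT samples, with a log2 fold change of -0.30 (SE 0.15, edgeR adjusted p = 0.421). Taco1, a translational activator of cytochrome c oxidase subunit 1, had -0.33 (adjusted p = 0.605).

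Malsu1, the factor that binds Mrpl14, had 27.6, 28.4 and 33.2 CPM in the db/db samples, against 18.2 and 25.2 CPM in the WT samples, with a log2 fold change of 0.45 (SE 0.18, edgeR adjusted p = 0.331). Rbfa, which acts on the small subunit rRNA, had 0.38 (adjusted p = 0.379). Among the synthetases, Fars2, for phenylalanine, had 0.36 (adjusted p = 0.378). Malsu1, Rbfa and Sars2 had every db/db sample above both WT samples, whereas for Fars2 db/db female 1 lay at 82.0 CPM and the WT male at 82.3 CPM.

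The 10 genes of mitochondrial transcription and mRNA stability had a median of 0.06. Slirp, which stabilises mitochondrial messenger RNAs, had 61.6, 46.4 and 62.0 CPM in the db/db samples, against 33.6 and 43.6 CPM in the WT samples, with a log2 fold change of 0.55 (SE 0.18, edgeR adjusted p = 0.229), and Tbrg4 had 0.28 (adjusted p = 0.416). The 7 genes of membrane insertion and assembly had a median of 0.13, with Timm21 at -0.47 (SE 0.18, adjusted p = 0.313) and Cox14 at 0.33 (adjusted p = 0.527). Of 9 transcription regulators the median was 0.10. At an unadjusted p under 0.05 edgeR had 1, 1 and 0 genes of these lists, against 12.9% of all genes tested in either direction. With library totals their medians were -0.12, -0.04 and -0.07. Gabpa, a subunit of the ETS factor named above, had 27.9, 31.8 and 21.6 CPM in the db/db samples, against 38.3 and 31.6 CPM in the WT samples, with a log2 fold change of -0.36 (SE 0.18, edgeR adjusted p = 0.422), and Gabpb1, its partner, -0.34 (adjusted p = 0.44).

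Genes of 2 other large complexes were set beside the 78. The 83 tested cytosolic ribosomal protein genes had a median log2 fold change of 0.35 with 83 above 0, and the 84 nuclear-encoded respiratory chain and ATP synthase genes 0.38 with 79 above 0, and 0 of either passed the edgeR test. At an unadjusted p under 0.05 edgeR had 10 and 35 of them, against 12.9% of all genes tested in either direction. DESeq2 had 26 and 51 at that bound, where no share of all genes was taken. At an adjusted p under 0.05 DESeq2 called 0 and 1 of them, against 235 of 16378 genes. Both sets have shorter transcripts, with median implied lengths of 623 and 583 bases. With the length and GC offset their medians were 0.08 and 0.14, against 0.07 for the mitoribosomal genes. With library totals they were 0.16 and 0.20, against 0.02. No test of a difference between the 3 sets was made.

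Between the sexes, with genotype in the model, 3 mitoribosomal genes were called higher in males than in females by edgeR (3.85% against 1.23% of all genes) and 0 lower. Mrps34 had a log2 fold change of male over female of 0.58 (adjusted p = 0.0248), Mrpl28 0.51 (0.0347) and Mrps21 0.50 (0.0442). The median over the 78 was 0.21, with 69 above 0, and 0.07, with 46 above 0, under library totals, where all genes lay at -0.15. Mrpl28, a bacterial-type protein of the large subunit, had 328.4 CPM in the db/db male and 227.9 CPM in the WT male, against 230.9 and 244.9 CPM in the db/db females and 154.7 CPM in the WT female. The WT male thus lay below both db/db females. Within WT the median difference of the male from the female was 0.25 and within db/db 0.18.

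The sex calls depended on the setting. DESeq2 called 8 of the 78 higher in males (1.62% of all genes) and edgeR without the filter on low counts 9 (2.05% of all genes), both with Mrpl28, Mrps21 and Mrps34 among them. Library totals left 0 (0.112% of all genes) and the length and GC offset 1, which was Mrpl17 (0.255% of all genes). Leaving out either db/db female left 0, with 0.548% and 0.161% of all genes called higher in males, and leaving out the db/db male left 1 (0.817%). Leaving out the WT female gave 11 (4.32% of all genes) and leaving out the WT male 8 (4.09%). For the interaction of genotype and sex, which had 1 residual degree of freedom, 0 of the 78 passed in edgeR and in DESeq2, against 1.16% of all genes in edgeR, and 0 of the 78 had an unadjusted p under 0.05 in either tool, against 9.87% of all genes in edgeR and 0.977% in DESeq2. The WT female is the only WT female sample and the db/db male the only db/db male sample, so sex, genotype and the deviation of these libraries with length cannot be told apart.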

How the data were processed

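Heart RNA of 3 db/db and 2 WT samples was measured by poly-A RNA sequencing. Per the submitters' processing notes, the tools were HISAT, Bowtie2 and DESeq2 (no version or role is stated) and the genome build was GRCm38.p6. Per the file headers, the authors deposited for each gene and sample an estimated read count, an FPKM value and a TPM value. The deposited expected counts were not normalized, and 91.4% of them were exactly whole as printed; the counting program and its use of strand are not given in the sources used here. FPKM values, as deposited, are scaled by transcript length and by library size. The deposited TPM values were left untested. The authors also deposited a log2 fold change, a p-value and a q-value per gene for their own comparison. After 1 line with a text fragment was dropped, 17228 genes remained, and 23 symbols that read as dates were looked up again by gene ID.

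Counts were rounded to whole numbers, filtered with edgeR's filter by group, scaled by TMM and tested with the robust quasi-likelihood F test of edgeR 4.0.16 in R 4.3.3. P-values were adjusted by Benjamini-Hochberg over all genes tested, with 0.05 as the threshold for a call. Genotype was fitted alone (3 residual degrees of freedom), sex with genotype (2), and their interaction with both (1). The mean ± SD is over samples, and SE values come from the F statistics. Counts of 1 gene of the 78 in a sample ran from 86 to 4485, which limits the precision of single values. The script was tested on simulated data with known changes.

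The length of a gene was taken as that implied by counts and FPKM, and GC content from GENCODE M21. The offset removed each library's loess trend (span 0.3) with length and GC. Promoters came from RefSeq; for genes with several windows, 3 of the 78 among them, the first listed was searched. The members and lists were chosen with earlier results of these data known. Named with values were the 10 members with the smallest p, the 5 highest and 5 lowest by FPKM, those with the highest and lowest fold change, members with known roles in human cardiomyopathy or listed for their function, and up to 2 genes per pathway list with the smallest p; genes named because another setting called them were chosen after their values were seen. A search for genes with patterns like that of Mrpl12 was not made, since 5 samples are too few for a correlation. Alternatives were DESeq2 1.42.0, limma-voom (limma 3.58.1), RLE scaling, library totals, 2 other filters, a term for sex or for the title's number, females alone, leaving out libraries, the offset with and without sex, and limma on log2(FPKM + 1) or log2(FPKM + 0.1) with a filter of 1 FPKM in 2 samples or with none. A lone WT sample was assumed to spread as the db/db samples do. Translation factor symbols Mtrfr and C12orf65 and the symbol Fastkd4 matched no gene of the table.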

Additional observations from a re-analysis of the deposited data

How the results depend on the processing

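For db/db against WT, 0 of the 78 genes were called by edgeR and also under 17 of the 20 alternatives. The exceptions were sex as a covariate (16), females alone (12) and the length and GC offset with sex (2). The median log2 fold change of 0.20 stayed above 0 under all 20 alternatives. It was 0.0673 with the offset, 0.0626 with the offset and sex, 0.0196 with library totals, 0.0186 with limma on log2(FPKM + 0.1) with or without its filter, 0.0185 with limma on log2(FPKM + 1), and 0.0416 with WT female and db/db male both left out. Leaving out 1 library gave 0.0933 to 0.35. The count over all genes, 129, was 235 in DESeq2, 256 with no filter on counts, 984 in females alone, 832 with sex, 451 with the offset and sex, 433 with WT female and db/db male both left out, 58 with limma on log2(FPKM + 0.1) without a filter, and 25 to 240 when 1 library was left out. With the replicate block 80 genes were called and 0 of the 78, with a median of 0.21. The title numbers are not stated to mark a shared batch, and over 10494 genes the differences between number 1 and number 2 in the 2 groups correlated at -0.112, so the numbers were not taken to pair the samples.

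The count of 3 for male against female was 8 with DESeq2, 9 without the filter, 1 with the offset, 0 with library totals, and 0 to 11 when 1 library was left out. The interaction count stayed at 0 with DESeq2 and with the offset. By annotated length, the difference between the shortest and longest 26 genes was 0.06 in place of 0.16.

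Of the 78 fold changes, 70 were above 0, against 43 with library totals and 46 with the offset. Among the genes followed singly, those that passed below 0 were these, and the cause was not tested. With library totals Mrpl44 was at -0.11, Mrps14 at -0.0499, Mrps22 at -0.0929, Mrps36 at -0.15 and Mrps12 at -0.0552. With the offset Mrpl44 was at -0.0442, Mrps22 at -0.0231, Mrps36 at -0.17 and Mrps12 at -0.18. With the offset and sex Mrpl44 was at -0.0638, Mrps22 at -0.0920, Mrps36 at -0.21 and Mrps12 at -0.17. With limma on log2(FPKM + 0.1), with or without its filter, Mrpl44 was at -0.12, Mrps22 at -0.14, Mrps36 at -0.15 and Mrps12 at -0.0535. With limma on log2(FPKM + 1) Mrpl44 was at -0.11, Mrps22 at -0.12, Mrps36 at -0.15 and Mrps12 at -0.0531. With WT female and db/db male both left out Mrpl12 was at -0.0402 and Mrps12 at -0.24, and in females alone Mrps36 was at -0.0116. When 1 library was left out, the values ran from -0.02 to 0.14 for Mrpl44, -0.11 to 0.22 for Mrps22, -0.0024 to 0.0846 for Mrps36 and -0.0832 to 0.38 for Mrps12.

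With 2 WT samples, fold changes of the size seen here are measured with an SE of 0.13 to 0.22, and a gene that misses the threshold is not shown to be equal in both groups. Genes whose exons overlap others, Mrps34, Mrps25 and Mrpl53 above all, are uncertain, and strand in counting is not given. Knowing the strand would not separate Mrpl53 from the predicted gene Gm42688, or Mrps34 from Nme3, since these share a strand.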

Other observations

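Levels of genes that share a start region can be set side by side. Of the 78 genes, at least 19 had a protein-coding neighbour on the opposite strand within 1000 bases of their start. Among them were Mrpl36 with Ndufs6, a complex I subunit gene, whose annotated starts overlap by 29 bases. Others were Mrpl49 with the ribosomal protein gene Fau at 59 bases, and Mrps27 with Ptcd2 at 81 bases. Pairs whose annotated starts overlap beyond a set limit, as those of Mrpl46 and Mrps11, were not counted. Mrpl46 and Mrps11, a member of each subunit, overlap each other on opposite strands by 173 bases, which is 12.2% of the exon bases of Mrpl46 and 7.97% of those of Mrps11. Mrps11 had a log2 fold change of db/db over WT of 0.30 and Mrpl46 one of 0.03 (edgeR adjusted p 0.432 and 0.955). These pairs were chosen after the annotation was read.

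Most of the exon bases of Mrpl53 (88%) also belong to the predicted gene Gm42688 on the same strand. GENCODE M21 lists 3 pseudogenes of Mrps36. How reads shared between such copies were assigned is not stated, and the counts of both genes are uncertain.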
